A study of Homo sapiens with 24 samples.

Results

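Transcripts that host small nucleolar RNAs (snoRNAs) in their introns were followed over 6 treatments of HepG2 cells, an established human hepatoma line. The 9 genes were *GAS5*, *SNHG1*, *SNHG7*, *SNHG8*, *SNHG12*, *SNHG15*, *ZFAS1*, *EPB41L4A-AS1* and *C6orf48*, chosen as hosts known to be degraded by nonsense-mediated decay. *C6orf48* was also selected on a value of these data, its lower level when ISRIB was added to bortezomib. The choice of the other members, and of the gene lists counted below, was made with earlier results of these data known. Of the 18915 genes in the count table, 7 were members, and *GAS5* and *SNHG1* were not analysed here. An expression filter kept 12685 genes, among them 6 members. *SNHG15*, the host of SNORA9, failed it with 8 counts over all 24 libraries, spread over 5 libraries with at most 3 in any of them, so it was not compared.

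snoRNAs guide the chemical modification of ribosomal RNA, the box C/D class directing ribose methylation and the box H/ACA class directing pseudouridylation. They are released from the introns of a host transcript, and the spliced host often carries only short reading frames, so that ribosomes meet early stop codons and the transcript is removed by nonsense-mediated decay, a pathway that depends on translation. Phosphorylation of the initiation factor eIF2 lowers translation initiation, and nonsense-mediated decay is known to slow in that state. Among the members, *ZFAS1* hosts the box C/D RNAs of the SNORD12 family and *C6orf48* (now named *SNHG32*) hosts SNORD48 and SNORD52, *SNHG7*, *SNHG8* and *EPB41L4A-AS1* host box H/ACA RNAs, and *SNHG12* hosts RNAs of both classes.

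The cells were exposed for 10 h to the vehicle DMSO, to 50 nM ISRIB, to 20 µM nelfinavir, to 50 nM bortezomib, or to that dose of bortezomib combined with the same dose of nelfinavir or of ISRIB, with 4 libraries per group. Bortezomib inhibits the proteasome. Nelfinavir, an HIV protease inhibitor, raises the phosphorylation of eIF2α, and ISRIB acts on eIF2B so that translation initiation goes on despite it. All 6 groups are 1 unmodified cell line in culture and share its background. Poly(A)-primed 3′ reads count the spliced, polyadenylated host and not the snoRNAs in its introns, and they do not scale with transcript length, so levels are compared between groups and not between genes.

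To show a feature of the host genes that did not enter their choice, 100 bases around the annotated start of each of the 6 members were taken from RefSeq promoters on GRCh38.p14, where 6 of 6 members matched. Many snoRNA hosts start at a terminal oligopyrimidine tract, a run of C and T at the first bases of the RNA. Each line gives the gene's own strand 5′ to 3′, with 50 bases before and 50 from the start, and capitals mark the longest stretch of at least 5 bases of C and T, counted from a C within 10 bases of the annotated start. In *SNHG7* the marked stretch continues a longer run of C and T that begins before that limit. It also ends before the annotated start, so it is not at the first bases of the annotated RNA, and a shorter run across the start is left unmarked. The motif was chosen after these sequences had been seen.
ZFAS1 (chr20:49278592-49278691, + strand): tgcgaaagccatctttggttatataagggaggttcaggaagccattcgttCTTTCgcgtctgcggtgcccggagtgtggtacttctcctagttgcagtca
C6orf48 (chr6:31834866-31834965, + strand): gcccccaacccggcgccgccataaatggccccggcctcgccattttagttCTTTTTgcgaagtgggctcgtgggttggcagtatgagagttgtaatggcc
SNHG12 (chr1:28581824-28581923, − strand): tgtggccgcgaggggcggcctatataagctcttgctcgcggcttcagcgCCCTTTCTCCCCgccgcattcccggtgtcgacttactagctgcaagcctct
SNHG7 (chr9:136728135-136728234, − strand): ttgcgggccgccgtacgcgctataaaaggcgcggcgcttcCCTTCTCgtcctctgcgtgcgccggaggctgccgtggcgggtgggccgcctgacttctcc
SNHG8 (chr4:118278712-118278811, + strand): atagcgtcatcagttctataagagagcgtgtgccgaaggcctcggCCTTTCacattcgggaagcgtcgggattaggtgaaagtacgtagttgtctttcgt
EPB41L4A-AS1 (chr5:112160476-112160575, + strand): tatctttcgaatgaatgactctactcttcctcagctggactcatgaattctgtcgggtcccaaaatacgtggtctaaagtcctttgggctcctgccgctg

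A stretch by this rule, which can lie before the start as in *SNHG7*, was found in 5 of the 6 windows. It was found in 33.5% of all 35116 promoters searched on the gene's strand. *EPB41L4A-AS1* was the member without a match. The letters TATAA, searched on the same strand between 40 and 20 bases before the start, were in 4 of 6 members (*SNHG7*, *SNHG8*, *SNHG12* and *ZFAS1*) and in 3.82% of all promoters. The C/EBP-ATF core TTGCATCA, searched on both strands of the full 300 bases of each promoter, matched 0 of 6 members and 0.866% of promoters. The looser TTNCATCA, which contains the former, also matched 0 of 6 members, and 3.62% of promoters. A match describes letters in a window and is not a site of binding.

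Total counts per library ran from 5154533 to 6943164, and the 5 liver and hepatoma markers *ALB*, *AFP*, *APOA1*, *APOB* and *TF* had at least 2923 counts in every library, whereas *COL1A1*, a fibroblast collagen gene, had at most 5 (*PTPRC*, the leukocyte marker, was not analysed here). The share of mitochondrially encoded genes was 21.5% ± 1.32 in DMSO, 21.9% ± 1.60 in ISRIB, 20.5% ± 1.66 in nelfinavir, 33.8% ± 1.19 in bortezomib, 27.2% ± 2.26 in bortezomib-nelfinavir and 36.1% ± 3.13 in bortezomib-ISRIB (SD, n = 4). The scaling factors (TMM) were 1.16 to 1.24 without bortezomib and 0.786 to 0.869 with it. When libraries were scaled by their totals alone, the log2 fold changes of all genes for bortezomib against DMSO shifted by a median of −0.50 from those under TMM. Fold changes with bortezomib are therefore relative to the other genes. Levels below are CPM, read counts relative to library size on the TMM scale, a gene was called when edgeR's quasi-likelihood test gave an adjusted p below 0.05 over all 12685 genes, and ± after a log2 fold change is its standard error. The share of all genes whose libraries did not overlap between groups was not counted. Such separation is therefore only a description of each member.

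*ZFAS1*, on chromosome 20 (47894715 to 47916137, + strand; gene positions are on GRCh37), is a long noncoding RNA. Its level was 194, 235, 253 and 256 CPM in the 4 DMSO libraries and 866, 947, 983 and 1030 CPM with bortezomib. It was 254, 245, 214 and 242 CPM with ISRIB and 352, 371, 341 and 421 CPM with nelfinavir. The bortezomib-nelfinavir libraries gave 998, 1085, 550 and 711 CPM, and the bortezomib-ISRIB libraries 470, 404, 304 and 506 CPM. Every bortezomib library lay above every library without bortezomib, and the bortezomib-nelfinavir libraries were the most scattered, libraries 1 and 2 at or above the bortezomib range and libraries 3 and 4 staying below it. From the lowest mean, the order was DMSO, ISRIB, nelfinavir, bortezomib-ISRIB, bortezomib-nelfinavir and bortezomib, and of the 5 neighbouring pairs only ISRIB and nelfinavir, and bortezomib-ISRIB and bortezomib-nelfinavir, did not overlap.

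*C6orf48*, in the class III region of the major histocompatibility complex on chromosome 6 (31802385 to 31807543, + strand), had 95.8, 92.8, 107 and 98.1 CPM in DMSO. Bortezomib libraries gave 210, 227, 270 and 295 CPM, and nelfinavir libraries 172, 154, 167 and 174 CPM. With both drugs the values were 221, 205, 155 and 173 CPM, and with bortezomib-ISRIB they were 129, 125, 105 and 134 CPM. ISRIB alone gave 107, 119, 101 and 114 CPM. The order of means was DMSO, ISRIB, bortezomib-ISRIB, nelfinavir, bortezomib-nelfinavir and bortezomib, and only bortezomib-ISRIB and nelfinavir were neighbours without overlap.

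*EPB41L4A-AS1*, on chromosome 5 (111496223 to 111500515, + strand), hosts SNORA13 and overlaps the protein-coding gene *EPB41L4A* on the opposite strand. Its 4 DMSO libraries had 32.9, 36.3, 37.5 and 37.4 CPM and its ISRIB libraries 42.9, 38.6, 46.6 and 37.5 CPM. Nelfinavir gave 66.8, 64.4, 69.8 and 68.4 CPM, bortezomib 123, 114, 110 and 154 CPM, and the pair of them 140, 124, 162 and 148 CPM. The bortezomib-ISRIB libraries, at 65.2, 54.4, 79.8 and 69.9 CPM, overlapped those of nelfinavir. These levels formed 3 steps that did not overlap, with DMSO and ISRIB lowest, nelfinavir and bortezomib-ISRIB between, and bortezomib and bortezomib-nelfinavir highest.

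*SNHG7* (chromosome 9, 139615818 to 139622636, − strand) and *SNHG8* (chromosome 4, 119199858 to 119206471, + strand) moved over narrower ranges. *SNHG7* had 72.9, 82.7, 77.7 and 80.5 CPM in DMSO, 87.3, 85.5, 72.0 and 76.6 CPM in ISRIB, and 127, 131, 124 and 147 CPM in nelfinavir. It had 126, 106, 125 and 142 CPM in bortezomib, 174, 186, 119 and 127 CPM in bortezomib-nelfinavir, and 102, 114, 84.0 and 99.2 CPM in bortezomib-ISRIB. All 5 pairs of neighbouring groups in its order of means (DMSO, ISRIB, bortezomib-ISRIB, bortezomib, nelfinavir, bortezomib-nelfinavir) overlapped.

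*SNHG8*, the host of SNORA24, was the member whose level with bortezomib-ISRIB lay below vehicle in every library. Its values were 125, 132, 129 and 136 CPM in DMSO and 98.4, 95.5, 118 and 87.6 CPM in bortezomib-ISRIB. ISRIB alone gave 143, 139, 140 and 152 CPM and bortezomib 169, 167, 160 and 205 CPM. Nelfinavir gave 175, 177, 226 and 186 CPM, and bortezomib-nelfinavir 197, 222, 258 and 231 CPM. In the order bortezomib-ISRIB, DMSO, ISRIB, bortezomib, nelfinavir, bortezomib-nelfinavir, the first 4 groups were separate from each other, and bortezomib, nelfinavir and bortezomib-nelfinavir overlapped in turn.

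*SNHG12*, on chromosome 1 (28905050 to 28909644, − strand), had another order from the other members. Its lowest mean was with nelfinavir (41.2, 42.3, 53.1 and 45.3 CPM) and its highest with bortezomib-nelfinavir (94.7, 79.0, 100 and 97.0 CPM). DMSO libraries had 57.9, 62.0, 59.9 and 55.0 CPM, ISRIB libraries 60.9, 62.1, 63.8 and 67.4 CPM, bortezomib libraries 48.5, 54.9, 71.2 and 59.4 CPM, and bortezomib-ISRIB libraries 44.1, 36.7, 60.4 and 46.9 CPM. The bortezomib-nelfinavir libraries stood above the other 5 groups, whose neighbours in the order of means all overlapped.

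**Figure D1:**
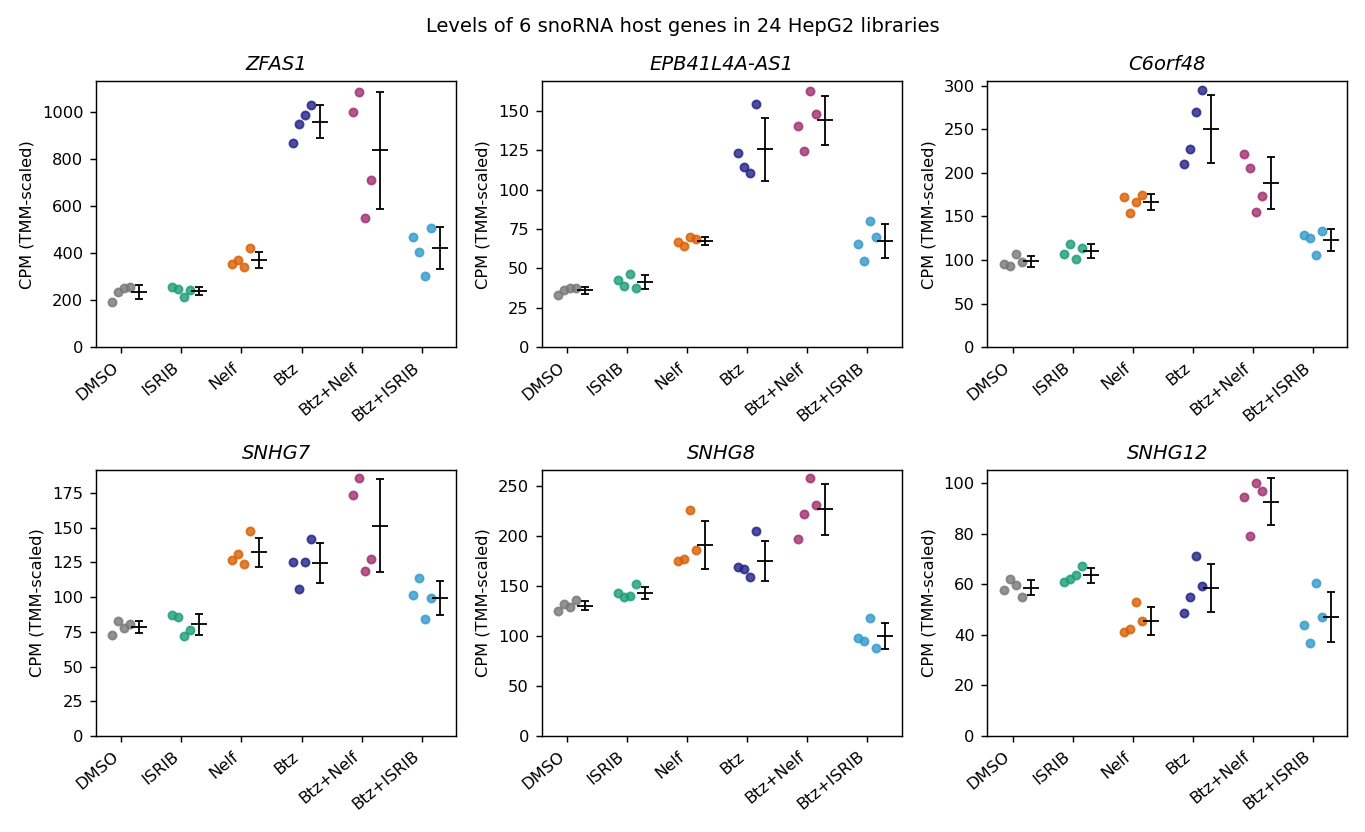
Level of each of the 6 host genes, in CPM on the TMM scale (vertical axis, from 0), in the 24 libraries of the 6 groups (horizontal axis; Btz, bortezomib; Nelf, nelfinavir). Points are libraries, and the dash and bar beside them are the mean ± SD of 4. *ZFAS1* rose from a mean of 234 CPM in DMSO to 956 CPM in bortezomib, whereas *SNHG12* had means of 58.7 and 58.5 CPM in these groups.

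Bortezomib alone raised *ZFAS1*, *EPB41L4A-AS1*, *SNHG7* and *SNHG8* and did not change *SNHG12* at 10 h, where 27.6% of all genes tested were called higher and 25.8% lower. *C6orf48* is left out of these calls. *ZFAS1* rose 4.08-fold (log2 2.03 ± 0.15, adjusted p = 2.17e-13) and *EPB41L4A-AS1* 3.48-fold (log2 1.80 ± 0.12, adjusted p = 6.6e-15). *C6orf48* was 2.54-fold higher (log2 1.35 ± 0.11), given as a description because these bortezomib libraries also belong to the comparison on which it was selected. *SNHG7* (1.59-fold, log2 0.67 ± 0.12, adjusted p = 1.51e-05) and *SNHG8* (1.34-fold, log2 0.42 ± 0.10, adjusted p = 0.000508) rose less. With libraries scaled by totals alone the *SNHG7* call was lost (log2 0.17) and *SNHG8* turned to −0.07. All 4 bortezomib libraries of these 5 genes, the selected *C6orf48* among them, lay above all 4 DMSO libraries. This only describes each gene, since the share of all genes so separated was not worked out. *SNHG12* was at a log2 fold change of 0.00 ± 0.12 (interval of 2 standard errors −0.25 to 0.24, adjusted p = 0.98). The median log2 fold change of the 6 members was 1.01, with the selected *C6orf48* included, and that of all genes tested was 0.00. Removing the mitochondrial genes before scaling left 5 members called higher, and scaling by totals alone left 3 higher and made 1 lower (*SNHG12*, −0.50), with 1490 genes called higher and 6266 lower in place of 3498 and 3275. *C6orf48* is among the members counted as higher in both. Since RNA was pooled over cells, fewer cells of a type and less RNA per cell cannot be told apart.

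Nelfinavir alone raised 5 of the 6 members, in both snoRNA classes, and lowered *SNHG12*. Of all genes tested, 10.4% were called higher and 8.84% lower. *EPB41L4A-AS1* rose 1.87-fold (log2 0.90 ± 0.11, adjusted p = 2.57e-07), *C6orf48* 1.69-fold (log2 0.76 ± 0.11, adjusted p = 1.52e-06) and *SNHG7* 1.69-fold (log2 0.75 ± 0.12, adjusted p = 9.69e-06). *ZFAS1* rose 1.58-fold (log2 0.66 ± 0.14, adjusted p = 0.000913) and *SNHG8* 1.46-fold (log2 0.55 ± 0.10, adjusted p = 7.83e-05). *SNHG12* fell by 0.37 ± 0.12 on the log2 scale (adjusted p = 0.0294). All 6 members were separate from DMSO in every library, a count for which the share of all genes was not worked out. The 5 higher members were called under each library left out. The *SNHG12* call was lost when DMSO library 1, 2 or 3 or nelfinavir library 1, 2 or 4 was left out, with adjusted p between 0.056 and 0.102. The median of the 6 members was 0.71 on the log2 scale, against 0.01 over all genes. Nelfinavir and bortezomib were compared with the same 4 DMSO libraries.

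ISRIB without bortezomib gave no call among the members, and 0% of all genes were called (703 genes at an unadjusted p under 0.05, and 1 gene called higher and 20 lower by DESeq2). The largest log2 fold change was that of *EPB41L4A-AS1*, at 0.20 ± 0.12 (interval −0.03 to 0.43, adjusted p = 0.978). *C6orf48* was at 0.16 ± 0.11 (−0.05 to 0.37), *SNHG8* at 0.14 ± 0.10 (−0.06 to 0.33) and *SNHG12* at 0.12 ± 0.12 (−0.13 to 0.36). *SNHG7* was at 0.04 ± 0.12 (−0.20 to 0.27) and *ZFAS1* at 0.03 ± 0.14 (−0.26 to 0.32). The 4 *SNHG8* libraries with ISRIB all lay above those with DMSO, and the other 5 members overlapped.

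Nelfinavir added to bortezomib raised 2 of the host genes and 3 were not called, with *C6orf48* left out, where 15.6% of all genes were called higher and 13.4% lower. *SNHG12*, at a log2 fold change of 0.00 with bortezomib alone, rose 1.58-fold over bortezomib (log2 0.66 ± 0.12, adjusted p = 0.000105), with all 4 libraries above those of bortezomib. *SNHG8* rose 1.29-fold (log2 0.37 ± 0.10, adjusted p = 0.00454). *C6orf48* was lower (log2 −0.41 ± 0.11, with overlapping libraries), a description, since it was selected on its level in these same bortezomib libraries. *SNHG7* was at 0.28 ± 0.12 (adjusted p = 0.0718), *EPB41L4A-AS1* at 0.20 ± 0.11 (adjusted p = 0.18) and *ZFAS1* at −0.19 ± 0.14 (adjusted p = 0.323). *SNHG7* passed the threshold without bortezomib library 4 (0.38) and without bortezomib-nelfinavir library 3 (0.40) or 4 (0.38), and *EPB41L4A-AS1* without bortezomib library 4 (0.35) or bortezomib-nelfinavir library 2 (0.31).

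The scatter within the bortezomib-nelfinavir group had a pattern across members. Libraries 1 and 2 were above libraries 3 and 4 for *ZFAS1*, *C6orf48* and *SNHG7*, whereas library 3 was the highest of the 4 for *SNHG8*, *SNHG12* and *EPB41L4A-AS1*. This was not particular to the group. In nelfinavir and in bortezomib-ISRIB, library 3 was also highest for *SNHG8*, *SNHG12* and *EPB41L4A-AS1*, and lowest for *ZFAS1* and *SNHG7*. In DMSO, ISRIB and bortezomib, library 3 was not highest for all of *SNHG8*, *SNHG12* and *EPB41L4A-AS1*. Part of the pattern was present in ISRIB, where library 3 was highest for *EPB41L4A-AS1* and lowest for *ZFAS1* and *SNHG7*. The mitochondrial share was 28.5% and 29.6% in libraries 1 and 2 and 24.9% and 25.6% in libraries 3 and 4. Library 3 had 21.4% in nelfinavir, where the group ran from 18.0% to 21.6%, and 32.6% in bortezomib-ISRIB, the lowest of its group. The part of this share, or of the replicate number, in these values was not tested.

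Bortezomib added to nelfinavir raised 4 of the 6 members, where 28.7% of all genes were called higher and 28.4% lower. *SNHG12* rose 2.04-fold (log2 1.03 ± 0.12, adjusted p = 1.21e-08), *ZFAS1* 2.25-fold (log2 1.17 ± 0.14, adjusted p = 2.59e-08) and *EPB41L4A-AS1* 2.14-fold (log2 1.09 ± 0.11, adjusted p = 3.8e-10). These 3 did not overlap between the groups. *SNHG8* rose by 0.25 ± 0.10 on the log2 scale (adjusted p = 0.0305), a call that was lost without nelfinavir library 1, 2 or 4 or without bortezomib-nelfinavir library 3 or 4 (log2 0.16 to 0.23), and a direction that turned with totals alone. *SNHG7* (0.19 ± 0.12, adjusted p = 0.156) and *C6orf48* (0.18 ± 0.11, adjusted p = 0.151) were not called, and under totals alone both turned to below 0 and were called lower, while *SNHG7* was called higher without bortezomib-nelfinavir library 3 (0.27). The scaling by totals called 1584 of all genes higher and 6518 lower, against 3639 and 3600. This comparison shares its bortezomib-nelfinavir libraries with the one before.

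**Figure D2:**
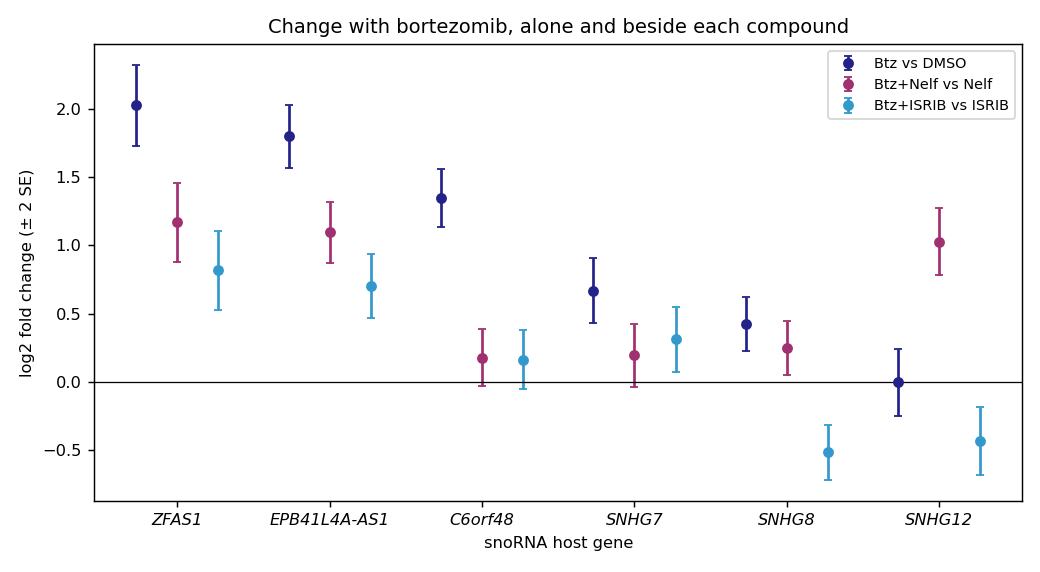
log2 fold change (vertical axis) of each of the 6 host genes (horizontal axis) when bortezomib was given against vehicle, in nelfinavir or in ISRIB, with bars of 2 standard errors and 4 libraries per group. *ZFAS1* and *EPB41L4A-AS1* were above 0 in all 3 settings, and *SNHG12* was at 0.00 against vehicle, 1.03 in nelfinavir and −0.43 in ISRIB; scaled by totals alone, *SNHG8* turned to below 0 against vehicle and in nelfinavir, *SNHG7* turned to below 0 in both combinations, and *C6orf48* did so in nelfinavir and in ISRIB.

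The change on adding nelfinavir differed with and without bortezomib for several members, by the interaction term (the change with bortezomib minus the change without it). It was called higher for *SNHG12* and lower for *ZFAS1*, *EPB41L4A-AS1* and *SNHG7*, where 9.74% of all genes were called higher and 10% lower. *C6orf48* is left out of these calls. *ZFAS1* had an interaction of −0.86 ± 0.20 on the log2 scale (adjusted p = 0.00258) and *EPB41L4A-AS1* of −0.71 ± 0.16 (adjusted p = 0.00146). The value of *C6orf48*, −1.17 ± 0.15, is a description, because the interaction subtracts the bortezomib libraries on which that gene was selected. *SNHG12* went the other way, with 1.03 ± 0.17 (adjusted p = 4.33e-05). *SNHG7* was at −0.47 ± 0.17 (adjusted p = 0.0404), and this call was lost in 10 of the 16 fits that left out a library, with adjusted p up to 0.123. *SNHG8*, at −0.18 ± 0.14 (interval −0.46 to 0.10, adjusted p = 0.406), was not called.

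The values that follow for ISRIB with bortezomib are from the comparison on which *C6orf48* was selected, and are described without a test. *C6orf48* was 2.03-fold lower with ISRIB than with bortezomib alone, at a mean of 123 CPM against 250 CPM (log2 −1.02 ± 0.11). *ZFAS1* was 2.27-fold lower (log2 −1.18 ± 0.15), *EPB41L4A-AS1* 1.86-fold lower (−0.90 ± 0.11) and *SNHG8* 1.75-fold lower (−0.81 ± 0.10). In these 4 genes every bortezomib-ISRIB library lay below every bortezomib library. *SNHG7* (−0.32 ± 0.12) and *SNHG12* (−0.31 ± 0.13) were lower in their means and overlapped. These 4 include the gene selected on this comparison, so nothing is read from their number against the 5.34% of all genes called lower and 6.91% called higher here. The median of the 6 members was −0.85 on the log2 scale, which includes the selected gene, so nothing is read from it against other genes either.

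Set against ISRIB alone, the bortezomib-ISRIB libraries fell into 3 patterns. *ZFAS1* (log2 0.82 ± 0.15) and *EPB41L4A-AS1* (0.70 ± 0.12) were higher with bortezomib in every library, and at 0.27 and 0.16 under totals alone. *SNHG8* (−0.52 ± 0.10) and *SNHG12* (−0.43 ± 0.13) were lower in every library, and at −1.06 and −0.97 under totals alone. *C6orf48* (0.16 ± 0.11, interval −0.05 to 0.38) and *SNHG7* (0.31 ± 0.12) overlapped, and under totals alone they were at −0.38 and −0.23. The difference between the change on adding ISRIB with and without bortezomib was −1.21 ± 0.20 for *ZFAS1*, −1.18 ± 0.15 for *C6orf48* and −1.10 ± 0.16 for *EPB41L4A-AS1*. It was −0.94 ± 0.14 for *SNHG8*, −0.43 ± 0.18 for *SNHG12* and −0.36 ± 0.17 for *SNHG7*, again without a test.

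**Figure D3:**
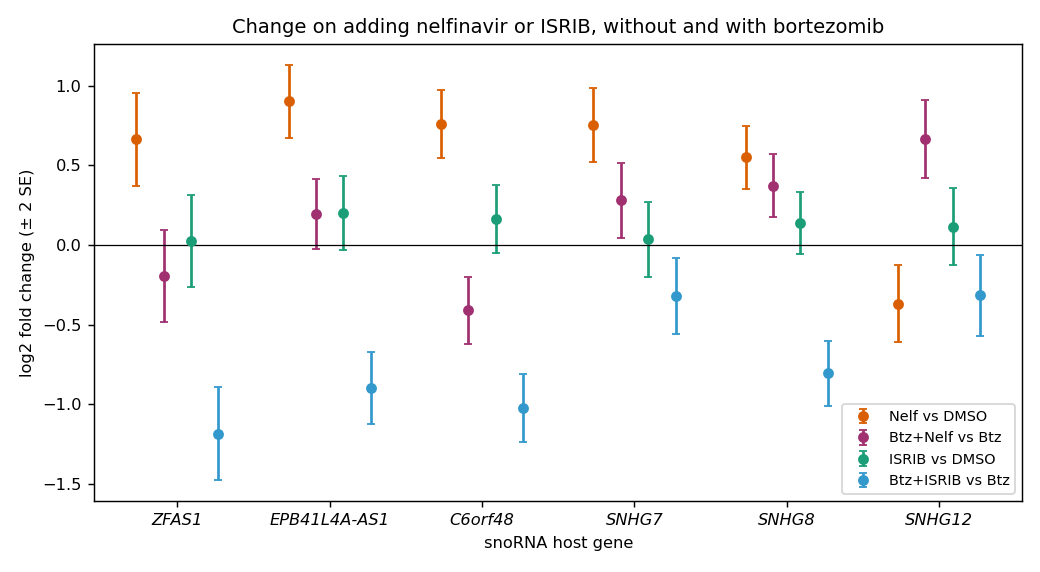
log2 fold change (vertical axis) of each of the 6 host genes (horizontal axis) on adding nelfinavir or ISRIB, without and with bortezomib, with bars of 2 standard errors and 4 libraries per group. For *ZFAS1*, *EPB41L4A-AS1* and *C6orf48*, ISRIB beside bortezomib gave −1.18, −0.90 and −1.02 and ISRIB alone 0.03, 0.20 and 0.16; the points of ISRIB beside bortezomib describe the comparison on which *C6orf48* was selected.

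Genes beside the members did not all move with them. The nearest gene to *C6orf48* in the table is *HSPA1B*, an inducible HSP70 gene on the same strand 4354 bp away, whose mean rose from 38.0 CPM in DMSO to 1424 CPM with bortezomib (log2 5.22 ± 0.12, adjusted p = 4.71e-26). *HSPA1B* fell with nelfinavir alone (log2 −0.98 ± 0.12, adjusted p = 1.75e-07) and rose when nelfinavir was added to bortezomib (0.90 ± 0.10, adjusted p = 3.71e-08), both opposite in sign to *C6orf48*. With ISRIB added to bortezomib it was at 0.20 ± 0.10, without a test. *HSPA1B* has a near-identical copy, *HSPA1A*, between which reads may be split. *NEU1*, a lysosomal sialidase gene 17893 bp on the other side, fell with bortezomib (log2 −0.54 ± 0.09, adjusted p = 1.01e-05). *DDX27*, an RNA helicase gene 34101 bp from *ZFAS1*, rose with bortezomib (1.21 ± 0.10, adjusted p = 1.23e-12) and was at −0.01 ± 0.09 with nelfinavir.

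In a later annotation than the one the authors counted on, exons of 4 members overlap genes on the opposite strand, and because the strand setting of the counting is not given in the sources used here, reads of such pairs cannot be told apart. For *EPB41L4A-AS1* the partner *EPB41L4A* had at most 4 counts in any library, and for *SNHG7* the partner *FAM69B* had at most 2. *ZNFX1*, a partner of *ZFAS1*, was at a log2 fold change of 0.07 ± 0.12 with bortezomib, where *ZFAS1* rose. *TRNAU1AP*, the partner of *SNHG12*, was at 0.00 ± 0.17 when nelfinavir was added to bortezomib, where *SNHG12* rose.

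Other hosts and the decay pathway itself were counted over fixed lists. Of 18 other noncoding snoRNA hosts, 2 were analysed here and both fell with bortezomib: *SNHG9* had a log2 fold change of −2.09 ± 0.31 (10.9 to 2.52 CPM, adjusted p = 8.86e-07) and *SNHG10* of −0.68 ± 0.26 (adjusted p = 0.0268). Over all genes tested, 25.8% were called lower with bortezomib, and 2 genes are few for a comparison with that share. *SNHG9* rose again when nelfinavir was added to bortezomib (1.19 ± 0.34, adjusted p = 0.00811). With nelfinavir alone neither was called.

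Of 36 protein-coding snoRNA hosts, 23 rose and 1 fell with bortezomib (median log2 0.31), 15 rose and 3 fell with nelfinavir (0.19), and 10 rose and 1 fell when nelfinavir was added to bortezomib (0.11). Over all genes tested, 27.6% were called higher and 25.8% lower with bortezomib, 10.4% and 8.84% with nelfinavir, and 15.6% and 13.4% when nelfinavir was added to bortezomib. The largest increases with bortezomib were in the chaperone genes *HSPA8* (1.33 ± 0.19, adjusted p = 3.62e-07) and *HSPA9* (1.02 ± 0.10, adjusted p = 3.55e-10). *NOP56*, which encodes a core protein of box C/D particles and also stands in the list of snoRNP proteins, fell with bortezomib by 0.19 ± 0.08 (adjusted p = 0.0486) and with nelfinavir by 0.74 ± 0.08 (adjusted p = 1.97e-08). The elongation factor gene *EEF2* (0.67 ± 0.09, adjusted p = 6.09e-07) and the ribosomal protein gene *RPL10* (0.54 ± 0.14, adjusted p = 0.00565) rose most with nelfinavir, where *HSPA8* fell by 0.76 ± 0.19 (adjusted p = 0.00348).

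Of 17 snoRNP proteins and assembly factors tested, 5 rose and 4 fell with bortezomib (median log2 0.16), shares close to the 27.6% and 25.8% of all genes. The box C/D core protein gene *NOP58* rose (0.78 ± 0.08, adjusted p = 1.37e-09), whereas *FBL*, the methyltransferase of the same particle, fell by 0.72 ± 0.10 (adjusted p = 3.87e-07), as did the H/ACA protein gene *NHP2* by 0.91 ± 0.15 (adjusted p = 3.19e-06). Nelfinavir alone raised 0 and lowered 2 (*NOP56* and *NOP58*; median −0.17, with −0.26 ± 0.08 for *NOP58*, adjusted p = 0.0259). With nelfinavir, 10.4% of all genes were called higher and 8.84% lower. *RUVBL1*, an assembly ATPase gene, fell by 1.26 ± 0.13 when nelfinavir was added to bortezomib (adjusted p = 6.48e-09).

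Of 18 nonsense-mediated decay factors, 4 rose and 2 fell with bortezomib (median log2 0.05), and 1 rose and 1 fell with nelfinavir (0.02). The shares of all genes called higher and lower were 27.6% and 25.8% with bortezomib and 10.4% and 8.84% with nelfinavir. These 18 genes are few for a comparison with those shares. *SMG1*, the kinase that phosphorylates UPF1, rose with bortezomib from 33.7 to 99.4 CPM (1.56 ± 0.12, adjusted p = 9.48e-13). *DHX34*, a helicase gene of the pathway, rose by 0.89 ± 0.18 (adjusted p = 7.9e-05), and the exon junction genes *MAGOH* (−0.30 ± 0.12, adjusted p = 0.0381) and *RBM8A* (−0.25 ± 0.09, adjusted p = 0.016) fell. With nelfinavir *CASC3*, another exon junction gene, rose (0.34 ± 0.09, adjusted p = 0.00793).

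Of 9 tested mRNAs known as decay substrates, most of which are also stress-response genes, 9 rose with bortezomib (median log2 1.51) and 6 with nelfinavir (0.68), and 0 fell in either, where 27.6% and 10.4% of all genes were called higher. *ATF3*, a stress transcription factor gene, rose from 1.65 to 70.9 CPM with bortezomib (5.39 ± 0.17, adjusted p = 7.43e-23), and *DDIT3*, which encodes CHOP, from 13.4 to 72.5 CPM (2.44 ± 0.13, adjusted p = 6.47e-17). With nelfinavir added to bortezomib, 5 rose and 1 fell, among them *GADD45B* (1.19 ± 0.23, adjusted p = 0.000158), *DDIT3* (0.99 ± 0.12, adjusted p = 6.56e-08) and *GADD45A* (−0.54 ± 0.12, adjusted p = 0.0012). There, 15.6% of all genes were called higher and 13.4% lower. With ISRIB added to bortezomib, described without a test, the median of these mRNAs was −0.14 on the log2 scale and that of the protein-coding hosts −0.18, and *ATF3* was at −0.95 ± 0.13 and *DDIT3* at −0.08 ± 0.12.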

How the data were processed

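HepG2 RNA from 4 biological replicates per condition was made into 3′ mRNA-Seq libraries (QuantSeq FWD). The authors trimmed the reads with cutadapt 2.8, aligned them to hg19 with STAR and deposited raw read counts for 18915 genes of the Ensembl GRCh37 annotation (protein coding, lincRNA and antisense). Neither the counting program nor its strand setting is named in these sources. Counts on genes were 5154533 to 6943164 per library. Intervals of 2 standard errors and p-values measure the spread between these libraries only.

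Genes passing filterByExpr (minimum count 5, minimum total 25) were scaled with TMM and tested in edgeR 4.0.16 (R 4.3.3) by the quasi-likelihood test with Benjamini-Hochberg adjustment, with a coefficient per group over all 24 libraries, and DESeq2 1.42.0 was an alternative. Both were tested on simulated data. Alternatives also changed the scaling, the filter, the groups in the model and the mitochondrial genes, added a replicate block, or left out each library. Annotation and promoters were read with Python 3.11.15 from GENCODE on GRCh37, where 18304 genes (96.77%) had a model, and from RefSeq.

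The members and lists were chosen with earlier results of these data known. All members with a row were named. From each list the 2 genes called with the largest log2 fold change in each direction could be named, beside the nearest genes of each member and, for *C6orf48*, the 5 genes with the highest correlation of log2 CPM (prior count 2). Replicates differed beyond sampling noise (lowest chi-square per degree of freedom 2.19). Libraries with the same replicate number were not treated as paired in the main fit, since the labels tie no number to a shared culture. Same-number pairs did correlate above 0.1 more often than others (10 of 60, and 7 of 180 pairs whose numbers differ). Of 24 libraries, 14 correlated best with their own number. A shared replicate effect is thus not excluded, and the replicate block was fitted as an alternative. Some genes that this rule names are not reported here.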

Additional observations from a re-analysis of the deposited data

Results flagged for a closer look

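The change on adding nelfinavir differed with and without bortezomib, by the interaction term on the log2 scale, for *ZFAS1* (−0.86), *EPB41L4A-AS1* (−0.71) and *SNHG7* (−0.47), and in the other direction for *SNHG12* (1.03). The *SNHG7* call was lost in most of the fits that left out a library. *C6orf48* was at −1.17, a description, since it was selected on its level in the bortezomib libraries. *SNHG12* fell by 0.37 without bortezomib and rose by 0.66 with it. For *SNHG8*, all 4 ISRIB libraries lay above DMSO and all 4 bortezomib-ISRIB libraries lay below bortezomib, a difference of −0.94 that was not tested. Of 36 sets of 4 libraries (member and group), 0 held a library far from the other 3 by Dixon's criterion, which chance passes in about 5% of groups.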

How the results depend on the processing

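Libraries scaled by totals alone gave −0.074 for *SNHG8* with bortezomib, −0.32 for *SNHG7*, −0.26 for *SNHG8* and −0.33 for *C6orf48* with bortezomib added to nelfinavir, and −0.23 for *SNHG7* with bortezomib added to ISRIB (log2 fold changes). In that scaling, 3 members were called higher (the selected *C6orf48* among them) and 1 lower with bortezomib, and 3 lower with bortezomib added to nelfinavir. With each library left out, 0 to 1 members were called lower with nelfinavir and 2 to 4 higher when nelfinavir was added to bortezomib. The replicate block gave 5 members called higher with bortezomib (the selected *C6orf48* among them) and changed no call of the members, and 14 of 24 libraries correlated best with their own number. Outside the left-out libraries, 469 values stayed on their side of the threshold or, where not tested, moved by less than the replicate spread, while 5 reversed, 5 became weaker, 2 stronger and 5 moved, among these *C6orf48* with bortezomib added to ISRIB, at −0.38 by totals alone. *SNHG15* had too few counts to compare.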

Other observations

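Among the genes whose log2 CPM was most like that of *C6orf48* over the 24 libraries, of 12679 genes outside the members, were *EIF5* (Pearson r = 0.90), an initiation factor gene, *SLC1A4* (0.89), a neutral amino acid transporter gene, *NFE2L1* (0.87), which encodes a transcription factor of proteasome genes, and *GHITM* (0.87). These are descriptions over libraries that share 6 treatments. The mean level of *EIF5* was 190 CPM in DMSO, 262 CPM in nelfinavir, 434 CPM in bortezomib, 404 CPM in bortezomib-nelfinavir and 266 CPM in bortezomib-ISRIB. *SLC1A4* was at 46.6, 116, 150, 113 and 79.8 CPM in the same groups. Ranked by Spearman's rho, *DDIT4* (0.93), a suppressor of mTORC1 signalling, and the ribosomal protein gene *RPS15A* (0.92) came first, so *NFE2L1* and *GHITM* were the genes among the first 5 by both measures.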
